A study of Danio rerio with 21 samples.

Results

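The genes described here are a set of zebrafish antigen presentation genes: 5 class I heavy chain genes (mhc1zba, mhc1zca, mhc1zea, mhc1uka and mhc1uba), the class I light chain gene b2m, the class II chain genes mhc2dga and mhc2dab, and the invariant chain genes cd74a and cd74b. They were picked because some of them separated heat-treated from control groups in these data, so their differences between heat-treated and control fish are given as a description, without a test. Of the 10 genes, 9 were found among the 26225 genes of the expression table by gene number, and mhc2dab could not be matched to a number and is only named. The table covers 21 RNA libraries of whole wild-type zebrafish of the AB strain, with 3 libraries in each of 7 groups. Heat-treated fish were moved to 35 °C at 25 dpf, returned to 28 °C at 35 dpf, and collected at 35 dpf (T35D), 45 dpf (T45D) and 60 dpf (T60D). Control fish never left 28 °C and were collected at 25 dpf (C25D), 35 dpf (C35D), 45 dpf (C45D) and 60 dpf (C60D). All fish descended from one family, each library was made from a pool of several fish, and the labels give no sex.

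Class I molecules sit on nearly all nucleated cells, where a heavy chain paired with beta-2-microglobulin presents peptides from inside the cell to CD8 T cells. Zebrafish class I genes fall into lineages named by letter, of which U holds the classical genes and Z is another lineage. Class II molecules pair an alpha with a beta chain, are made mainly by antigen-presenting cells such as macrophages, dendritic cells and B cells, and are guided to the endosome by the invariant chain CD74. The immunoproteasome cuts the peptides for class I, the TAP transporter and tapasin load them, and CIITA drives transcription of class II genes. In zebrafish the adaptive immune system matures over the first weeks of life, the period sampled here.

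Expression is given in CPM, the expected count scaled to a common library size with TMM factors over all 21 libraries, and the values of a group are listed in the order of the replicate numbers. Library totals ran from 11875455 to 16471171 expected counts with a median of 13616146, and 3 counts were worth between 0.182 and 0.253 CPM before scaling. MHC genes are a family of similar sequences, reads were assigned to the reference coding genes, and reads shared between close copies, or from alleles that differ from the reference, could be placed wrongly, so the level of a single MHC gene is uncertain. Since RNA came from whole fish, fewer cells of a type and less RNA per cell cannot be told apart.

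Some libraries stood apart before any comparison was made. C45D-3 matched a weighted mean of C45D-1 and C45D-2 almost to counting noise, with a median squared difference of 1.29 times that noise, and C60D-3 matched a mean of C60D-1 and C60D-2 in the same way, at 1.33 times. Among the other libraries this value was never below 3.90. Neither library therefore counts as a clearly independent replicate, and results are given with and without them. The 10 liver markers summed to between 5.05 and 24.4 CPM in C60D-1, C60D-2, C60D-3, T45D-3 and T60D-2, against 2910 to 24515 CPM in the other 16 libraries, at odds with the whole-fish label. The 20 eye markers summed to 3.65 to 9.15 CPM in C60D and 2995 to 4210 CPM in C25D, and the lowest library of C35D, T45D and T60D had 3.43, 5.73 and 3.39 CPM. Gut and exocrine pancreas markers summed to 11.2 to 533 CPM in C60D and 2387 to 3054 CPM in C25D. The 15 oocyte markers summed to between 5658 and 14663 CPM in T35D-2, T35D-3, T45D-2, T60D-2 and T60D-3, against at most 1137 CPM in the other 16.

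Per length of transcript, the order of the genes by their median over 21 libraries was b2m at 142 FPKM, cd74a at 118, cd74b at 101, mhc1zba at 97.98, mhc1zca at 19.0, mhc1zea at 12.2, mhc2dga at 6.60, mhc1uka at 2.64 and mhc1uba at 0.16 FPKM. The step from mhc1zba to mhc1zca was seen in 21 of 21 libraries. The neighbours b2m and cd74a changed places between libraries, with b2m higher in 8 of 21, and cd74b was higher than mhc1zba in 12 of 21. The 2 invariant chain genes kept close to each other, with an FPKM ratio of cd74b to cd74a between 0.572 and 1.14. The ratio of mhc2dga to cd74a was far less steady and ran between 0 and 0.381.

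The levels of b2m, cd74a, cd74b and mhc1uka in control fish climbed with age. The gene b2m, which encodes the light chain shared by class I molecules and served the study as a reference gene in qPCR, had 19.1, 16.0 and 19.9 CPM in C25D, 152, 66.0 and 104 CPM in C35D, 170, 254 and 213 CPM in C45D, and 532, 289 and 425 CPM in C60D. Every control library of one age was above every control library of the age before. The log2 fold change of C60D over C25D was 4.52 (SE 0.36), larger than that of 98.2% of the 21660 genes tested. For b2ml, a b2m-like gene by name outside the set and named after its values were seen, it was 1.45 (SE 0.24).

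The invariant chain gene cd74a had 29.1, 16.6 and 35.5 CPM in C25D, 109, 86.6 and 115 CPM in C35D, 254, 344 and 294 CPM in C45D, and 553, 258 and 408 CPM in C60D. Its paralogue cd74b had 18.3, 14.0 and 22.0 CPM in C25D, 99.9, 54.1 and 75.1 CPM in C35D, 180, 195 and 180 CPM in C45D, and 314, 179 and 262 CPM in C60D. For both, the groups of 25, 35 and 45 dpf did not overlap, while C60D-2 lay within or near the range of C45D. The log2 fold changes of C60D over C25D were 3.93 (SE 0.35) for cd74a and 3.82 (SE 0.30) for cd74b.

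The U lineage gene mhc1uka, which lies between the tapasin genes tapbp.1 and tapbp.2 in the RefSeq gene order, was nearly silent at the start. It had 0.214, 0.331 and 0.112 CPM in C25D, from 2 to 5 counts per library, then 3.81, 1.53 and 2.35 CPM in C35D, 5.54, 8.21 and 6.42 CPM in C45D, and 18.7, 8.86 and 13.3 CPM in C60D. The control ages did not overlap. The log2 fold change of C60D over C25D was 5.95 (SE 0.51), above that of 99.2% of the genes tested. Per length, mhc1uka reached between 0.0209 and 0.0233 of the b2m level in C60D, against between 0.00417 and 0.0153 in C25D.

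The Z lineage gene mhc1zba was, per length, above the next class I heavy chain gene of the set in every library. It had 130, 80.4 and 157 CPM in C25D, 338, 168 and 262 CPM in C35D, 328, 395 and 357 CPM in C45D, and 390, 419 and 389 CPM in C60D, and the log2 fold change was 1.73 (SE 0.30) between the end ages. Its neighbour mhc1zca had 17.6 to 24.2 CPM in C25D, 15.5 to 42.4 in C35D, 34.3 to 40.3 in C45D and 44.5 to 109 in C60D. For mhc1zca the groups of 25 and 35 dpf overlapped, and the log2 fold change between the end ages was 1.83 (SE 0.39).

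These differences between control ages use no heated library. They were tested by edgeR's quasi-likelihood F test over the 4 control groups, with Benjamini-Hochberg adjustment over 21660 genes and a threshold of 0.05. All control groups but the youngest are, however, the control side of the heat comparisons from which the set was chosen. The adjusted p values and counts of called genes of the set are therefore not free of that choice and are read as a description. Of the 9 genes, 7 were called, against 50% of all genes tested. The adjusted p was 3.0e-05 for cd74b, 3.8e-05 for b2m, 5.3e-05 for cd74a and for mhc1uka, 0.0037 for mhc1zba, 0.0075 for mhc1uba and 0.0094 for mhc1zca in edgeR. For mhc1uba the control libraries with the most counts were C35D-1 and C35D-3, with 42 and 51. C35D-2 had 6, C45D had 1, 14 and 12, and C60D had 0, 0 and 1. The call of mhc1uba is therefore not one of a rise to 60 dpf. In one fit of all 21 libraries mhc1zba, mhc1uba and mhc1zca were not called (adjusted p of 0.076, 0.086 and 0.15 in edgeR). The test over the control groups did not call mhc1zea (adjusted p = 0.107 in edgeR) or mhc2dga (adjusted p = 0.163 in edgeR). DESeq2 called the same number of the 9 genes, 7, against 47.7% of all genes.

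The libraries named above set how many of these calls hold. Without C45D-3 and C60D-3, 6 of the 9 genes were called against 25% of all genes, and mhc1zca was lost (adjusted p = 0.064 in edgeR). With the C60D libraries left out, 6 of 9 were called against 19% of all genes, with mhc2dga gained (adjusted p = 0.016 in edgeR) and mhc1uba and mhc1zca lost. With C60D and C45D-3 both left out, so that 8 libraries of 25, 35 and 45 dpf remained, cd74b, cd74a, b2m and mhc1uka were still called, 4 of 9 against 7.16% of all genes, with adjusted p between 0.0054 and 0.011 in edgeR. In that fit the log2 fold change of C45D over C25D was 3.39 for cd74b, 3.48 for cd74a, 3.54 for b2m and 4.96 for mhc1uka. The 8 libraries of that fit held liver markers, but eye markers still ran from 3.43 to 1982 CPM in C35D. C35D, C45D-1 and C45D-2, control libraries of the comparisons from which the set was chosen, remained in all of these fits. The parts of that choice and of tissue make-up in the rise were not tested.

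**Figure D1:**
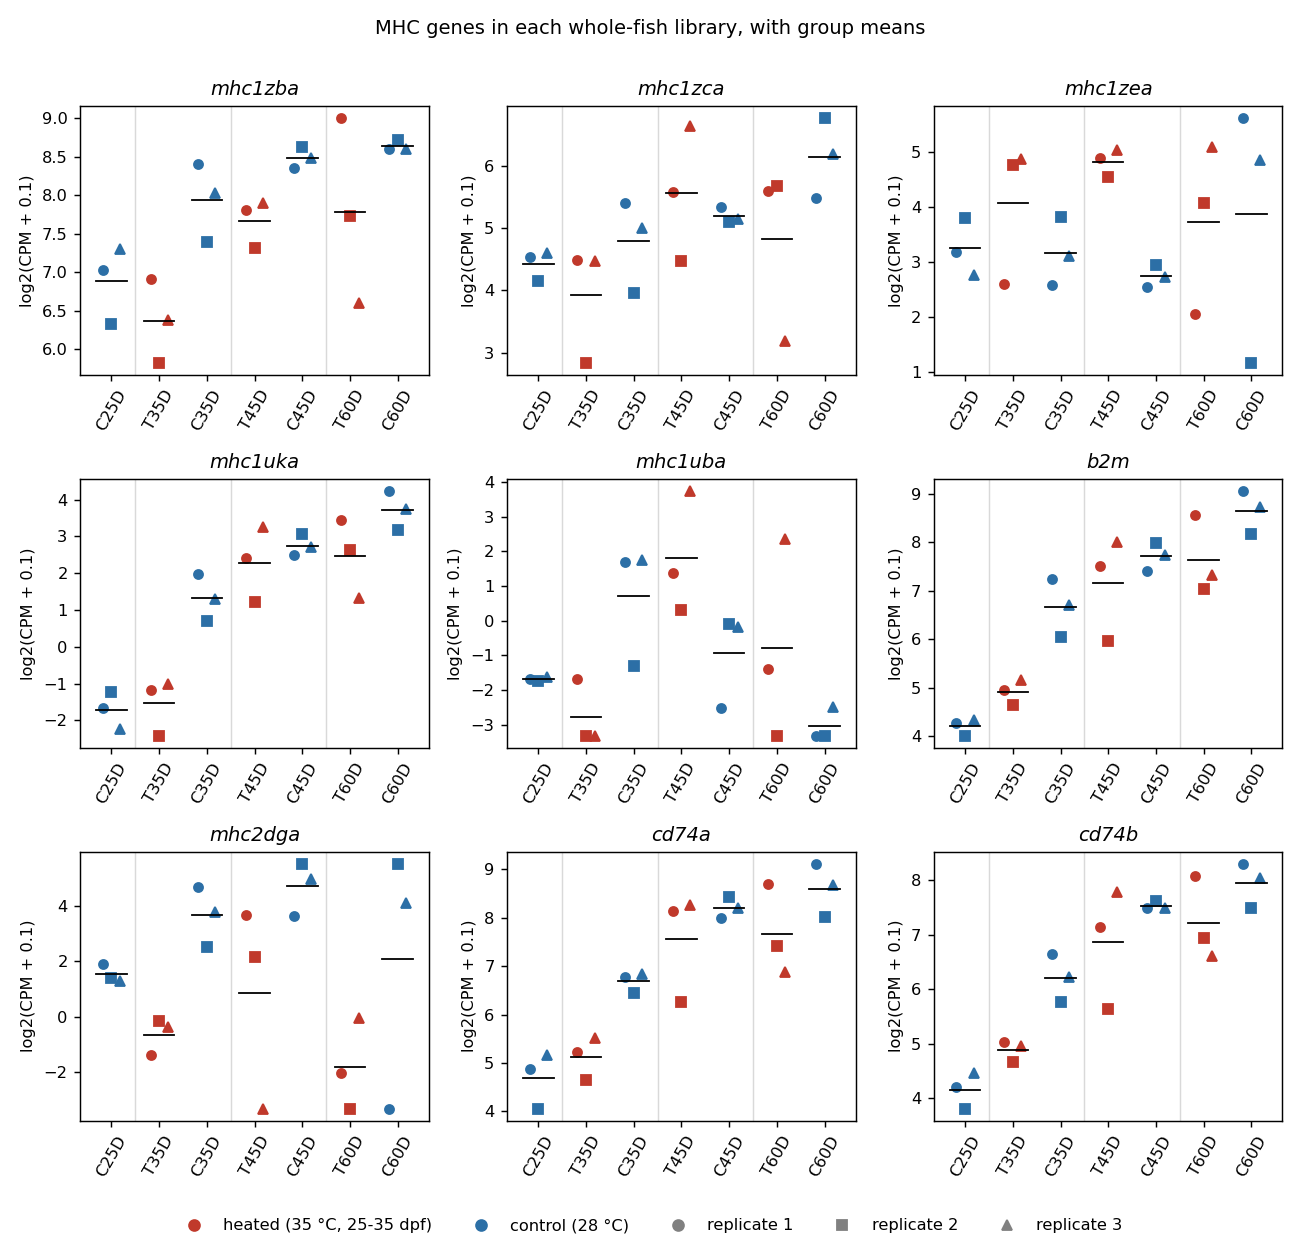
Each panel shows 1 gene in the 21 libraries, on a vertical axis of log2(CPM + 0.1), with heat-treated libraries in red, control libraries in blue, the replicate number as the marker shape and the mean of the log2 values of a group as a black line. In control fish b2m climbs from 16.0 to 19.9 CPM in C25D to 289 to 532 CPM in C60D, the 3 T35D libraries (25.0 to 35.7 CPM) lie below all C35D libraries, and mhc1zea has no such course.

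Other genes of the same pathway were tested across the control ages too. Lists of 108 further genes (peptide loading, immunoproteasome, class II processing, regulators of MHC genes, interferon response and the remaining mhc1 and mhc2 genes) had 99 members with enough counts, of which edgeR called 61, with 56 higher and 5 lower in C60D than in C25D, in a test that called 50% of all genes. All 8 immunoproteasome genes tested were called, 7 of them higher, with a median log2 fold change of 2.86. Of the peptide loading genes 9 of 14 were called, all higher, and of the interferon response genes 20 of 25, with 16 higher. Of the class II processing genes 5 of 11 were called, with a median of 0.34, and of the regulators 8 of 19, with a median of 0.48. The remaining class II genes had a median of 3.61, with 5 of 8 called, and the remaining class I genes a median of 1.69, with 6 of 14 called. The median over all genes was 0.08.

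Without C60D and C45D-3, 14 of 95 of these further genes were called, 13 of them higher in C45D than in C25D, in a fit that called 7.16% of all genes. Those 14 were the immunoproteasome genes psmb8a, psmb9a, psmb12, psmb13a, psme1 and psme2, the peptide transporter gene tap2a, the tapasin gene tapbp.1, the class II transactivator gene ciita, the class II genes mhc2daa and mhc2dgb, and ifit15, mxa and ifi44f1 of the interferon list. They were named after their values were seen. The summed leukocyte markers (ptprc, coro1a, laptm5 and wasb) lay at 26.2 to 34.7 CPM in C25D, 55.8 to 61.8 in C35D, 54.4 to 67.9 in C45D and 29.9 to 54.2 in C60D, and the 14 macrophage and dendritic cell markers at 28.4 to 50.3 CPM in C25D, 52.5 to 63.0 in C35D, 48.3 to 74.1 in C45D and 49.2 to 180 in C60D. In C60D-1 and C60D-2 the macrophage and dendritic cell markers summed to 180 and 49.2 CPM, and cd74a was also higher in C60D-1. C60D-3, at 129 CPM, lay between them as its match to their mean would have it, so its place adds nothing to this order. The 11 B cell markers lay between 24.0 and 41.5 CPM in all control libraries. The part of leukocyte number in the rise was not tested.

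At the end of the heat treatment, at 35 dpf, 7 of the 9 genes were lower in all 3 T35D libraries than in all 3 C35D libraries, and no gene of the set was higher without overlap. Of the 20209 genes tested, 14.1% lay lower without overlap and 10.1% higher. The gene mhc1uba, among the 7, had enough counts in too few libraries to be tested by edgeR. The set was chosen on this contrast, so nothing is read from the count or from the median of the set. The median log2 fold change of T35D over C35D was -1.56 for the 8 genes with enough counts, against 0.27 for all genes. Set beside the 25 dpf controls, at the age when the treatment began, T35D had 25.0 to 35.7 CPM of b2m and C25D 16.0 to 19.9, T35D 25.1 to 45.4 CPM of cd74a and C25D 16.6 to 35.5, and T35D 25.3 to 32.6 CPM of cd74b and C25D 14.0 to 22.0, a side-by-side of different ages that was not tested.

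The gene b2m had 30.6, 25.0 and 35.7 CPM in T35D, against 152, 66.0 and 104 CPM in C35D, and the log2 fold change was -1.83 (SE 0.44). The gene cd74a had 37.1, 25.1 and 45.4 CPM in T35D and 109, 86.6 and 115 CPM in C35D, with -1.54 (SE 0.39) as the log2 fold change. For cd74b the values were 32.6, 25.3 and 31.2 CPM in T35D and 99.9, 54.1 and 75.1 CPM in C35D, and the log2 fold change was -1.37 (SE 0.39). In all 3 of these genes the highest T35D library lay below the lowest C35D library.

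Among class I heavy chain genes, mhc1zba had 120, 56.4 and 83.1 CPM in T35D and 338, 168 and 262 CPM in C35D, and the log2 fold change was -1.57 (SE 0.49). The U lineage gene mhc1uka had 0.347, 0.0879 and 0.398 CPM in T35D and 3.81, 1.53 and 2.35 CPM in C35D, and the log2 fold change was -3.14 (SE 0.70). The Z gene mhc1zca had 22.3, 7.03 and 22.0 CPM in T35D and 42.4, 15.5 and 31.8 CPM in C35D, and these groups overlapped (log2 fold change -0.81, SE 0.57). These directions were kept when any single library was left out, and mhc1zba lay at -2.11 without T35D-1.

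Among the 8 genes with enough counts for the fit, the one furthest from C35D was mhc2dga, a class II alpha chain gene of the D family. It had 4, 9 and 10 expected counts in T35D (0.277, 0.791 and 0.663 CPM), against 340, 110 and 212 in C35D (25.4, 5.62 and 13.4 CPM). The log2 fold change was -4.68 (SE 0.75), lower than that of all but 0.0198% of the genes tested. As mhc2dga was picked because it separates heated from control groups, nothing is read from this rank. All 3 T35D libraries lay also below the C25D libraries, which had 51, 38 and 42 counts, whereas for b2m all 3 T35D libraries lay above all C25D libraries.

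**Figure D2:**
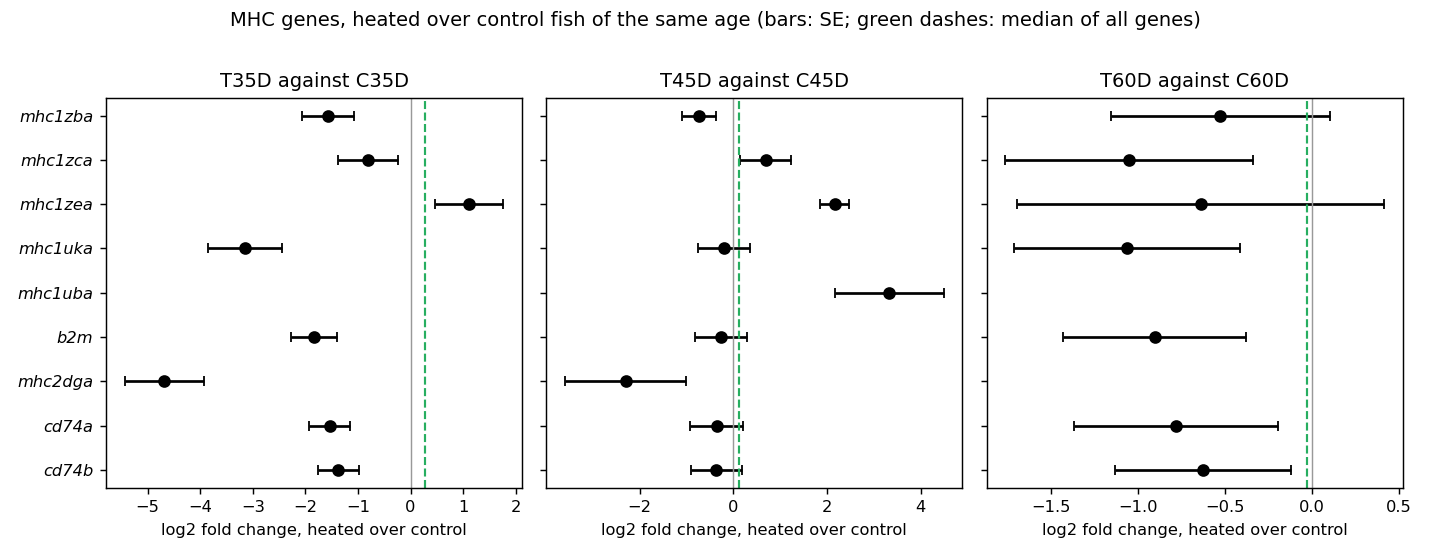
Log2 fold changes of heat-treated over control fish at 35, 45 and 60 dpf, with SE bars. The green dashed line is the median of all genes tested at that age. The horizontal scales differ between panels. Genes with enough counts in too few libraries for the fit (mhc1uba at 35 and 60 dpf, mhc2dga at 60 dpf) have no point. At 35 dpf mhc2dga lies at -4.68 and b2m at -1.83, at 45 dpf mhc1zea lies at 2.16, and at 60 dpf all 7 genes drawn lie between -1.06 and -0.53.

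Markers of other tissues moved between the same groups at 35 dpf. All 4 leukocyte markers were lower in T35D without overlap, with a sum of 12.1 to 25.9 CPM in T35D and 55.8 to 61.8 CPM in C35D, and none of them was at 0 in any library. The 14 macrophage and dendritic cell markers summed to between 23.1 and 30.6 CPM in T35D and between 52.5 and 63.0 CPM in C35D, and 12 of 13 tested had a log2 fold change below 0. The B cell markers summed to between 14.6 and 31.96 CPM in T35D and between 24.0 and 30.2 CPM in C35D. Of 8 tested in edgeR 5 were above 0, while in DESeq2 7 of 11 were below 0. The 6 neutrophil markers summed to between 37.7 and 73.5 CPM in T35D and between 37.9 and 57.2 CPM in C35D, with 4 of 5 tested below 0. The T cell markers summed to between 11.3 and 16.2 CPM in T35D and between 15.1 and 60.0 CPM in C35D, with 7 of 8 tested below 0. The sums of the B cell, neutrophil and T cell markers overlapped between the groups. The macrophage gene mpeg1.1 had 1.90 ± 0.55 CPM in T35D and 8.96 ± 0.84 CPM in C35D (SD, n = 3 each). The 15 oocyte markers summed to between 13.6 and 14663 CPM in T35D and between 63.3 and 1137 CPM in C35D, and the 10 liver markers to between 2910 and 12427 CPM in T35D and between 19060 and 24515 CPM in C35D. T35D-1, which had 13.6 CPM of oocyte markers, had 30.6 CPM of b2m and 37.1 CPM of cd74a, both below all C35D libraries. All 8 skin markers and all 9 gut and exocrine pancreas markers had a log2 fold change below 0 in T35D. By contrast, 19 of 20 eye markers and 7 of 9 brain markers were above 0. The part of these tissues in the MHC values was not tested.

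**Figure D3:**
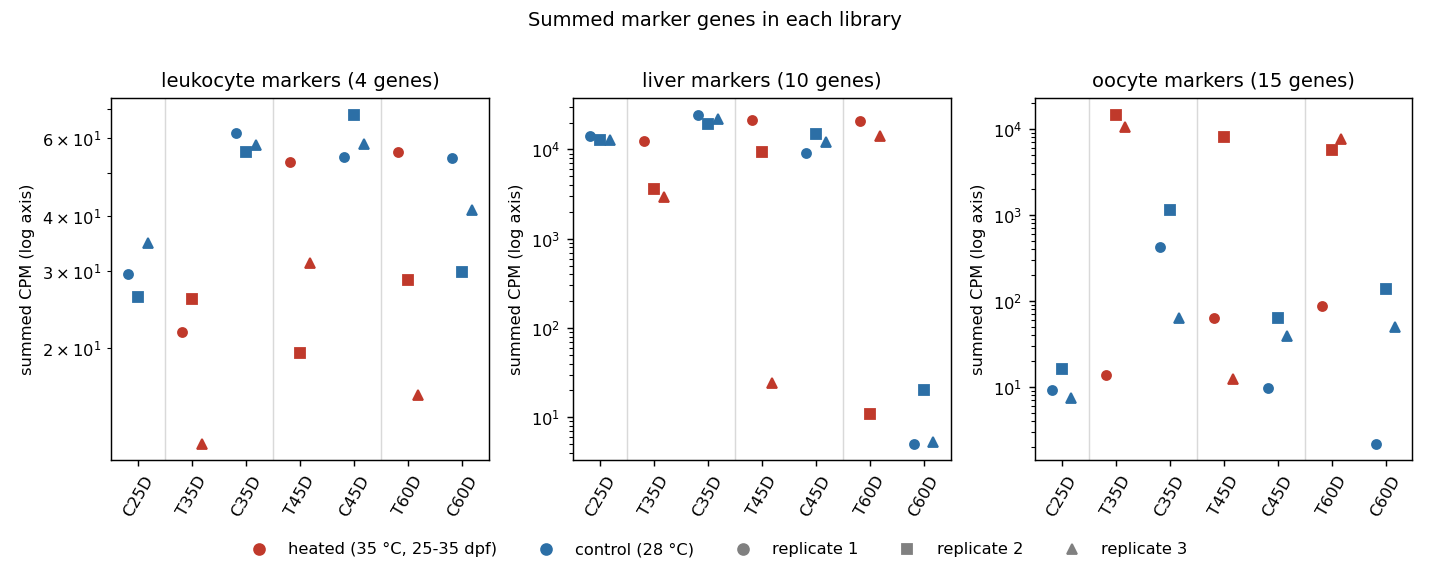
Summed CPM of 4 leukocyte, 10 liver and 15 oocyte marker genes in each library, on log axes, with heat-treated libraries in red and control libraries in blue. The T35D libraries lie below the C35D libraries for leukocyte markers (12.1 to 25.9 against 55.8 to 61.8 CPM), liver markers are at or below 24.4 CPM in the 3 C60D libraries, T45D-3 and T60D-2, and oocyte markers reach 5658 CPM or more in 5 heat-treated libraries.

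The rest of the pathway at 35 dpf could be tested, and edgeR called 0 of the 87 further genes tested and 0 of all 20209 genes, with 3184 genes higher and 1684 lower at an unadjusted p of at most 0.05. DESeq2 called 8 of 106 further genes, 1 higher and 7 lower, against 6.47% of all genes. Those 8, named because they were called, were ifit15, ctsl.1, tapbpl, irf1b, mhc2dgb, ctss2.1, mhc2dhb and psme1. By edgeR, the proteasome activator genes psme1 and psme2 had log2 fold changes of -1.46 (SE 0.39) and -1.36 (SE 0.49), both with an adjusted p of 0.19, while psme3, which encodes an activator of the nuclear proteasome, had 1.33 (SE 0.65, adjusted p = 0.24). The class II genes mhc2daa, mhc2dhb and mhc2dgb had -1.47 (adjusted p = 0.27), -3.72 (adjusted p = 0.19) and -3.72 (adjusted p = 0.19) in edgeR.

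By list, 6 of 8 immunoproteasome genes, 5 of 5 further class II genes and 16 of 20 interferon response genes had a log2 fold change below 0 in T35D, with medians of -0.86, -1.59 and -0.75. Of the 11 class II processing genes, 7 were below 0, with a median of -0.62. The 13 peptide loading genes, with a median of -0.04, and the 19 regulators, with a median of -0.12, lay close to 0. The median over all genes was 0.27. The 11 further class I genes tested split 5 above and 6 below 0. The peptide loading chaperone genes pdia3, calr3a and canx, which serve all secretory proteins, had log2 fold changes of 0.41, 0.60 and -0.10 (adjusted p of 0.53, 0.47 and 0.87 in edgeR).

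After 10 days back at 28 °C, at 45 dpf, 6 of the 9 genes had a log2 fold change below 0, with a median of -0.27 against 0.12 for all genes. Only mhc1zba was lower without overlap, and mhc1zea and mhc1uba were higher without overlap, where 19.2% of the 20125 genes tested lay lower and 6.86% higher. The gene mhc1zba had 223, 159 and 238 CPM in T45D and 328, 395 and 357 CPM in C45D, and the log2 fold change was -0.73 (SE 0.36). The gene b2m had 183, 62.1 and 258 CPM in T45D and 170, 254 and 213 CPM in C45D (log2 fold change -0.27, SE 0.55). The gene cd74a had 280, 76.3 and 309 CPM in T45D and 254, 344 and 294 CPM in C45D (log2 fold change -0.35, SE 0.57). For cd74b, mhc1uka and mhc1zca the groups overlapped as well, with log2 fold changes of -0.36, -0.21 and 0.69, and so they did for mhc2dga, at -2.30 (SE 1.29). Leaving out C45D-3 gave -0.73 for mhc1zba and -0.26 for b2m. With library size in place of TMM the median of all genes was -0.43, and b2m lay at -1.07, cd74a at -1.12, cd74b at -1.16, mhc1uka at -1.02, mhc1zba at -1.33 and mhc1zca at -0.13.

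The lowest T45D library for b2m, cd74a, cd74b and mhc1uka was T45D-2, the library of that group with oocyte markers at 8108 CPM. Without it their log2 fold changes were 0.13, 0.07, 0.05 and 0.19. That fit left T45D-1 and T45D-3. T45D-3 had the highest T45D value of each of these genes, at 258, 309, 221 and 9.42 CPM. Its liver markers summed to 24.4 CPM, and its TMM factor of 0.491 was the lowest of the 21 libraries. T45D-1, with liver markers present and oocyte markers at 62.5 CPM, had levels of b2m and cd74a inside the range of C45D, while its 142 CPM of cd74b and 5.20 CPM of mhc1uka lay below all C45D libraries (180 to 195 and 5.54 to 8.21 CPM). The leukocyte markers summed to 19.5 to 52.9 CPM in T45D and 54.4 to 67.9 CPM in C45D. The sums of the macrophage and dendritic cell markers overlapped, at 22.3 to 70.7 CPM in T45D and 48.3 to 74.1 CPM in C45D. Of the 9 T cell markers tested at this age, 7 lay lower in T45D without overlap, with a sum of 5.32 to 20.0 CPM in T45D and 62.9 to 70.2 CPM in C45D. Among them rag1, a recombinase gene of developing lymphocytes, had 0 to 4.24 CPM in T45D and 29.6 to 37.3 CPM in C45D (adjusted p = 0.22 in edgeR). All 20 eye markers and 7 of 9 brain markers also lay lower in T45D without overlap. The eye markers summed to 5.73 to 987 CPM in T45D and 1711 to 3450 CPM in C45D. At 60 dpf the T cell markers overlapped in their sum, at 12.2 to 62.0 CPM in T60D and 17.0 to 22.1 CPM in C60D. Of the 7 tested at that age, 4 had a log2 fold change above 0. The part of tissue make-up in the T cell marker values was not tested.

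At 60 dpf all 9 genes overlapped between T60D and C60D, where 11.7% of the 18653 genes tested lay higher and 17.1% lower without overlap. The genes mhc1uba and mhc2dga had enough counts in too few libraries to be among those tested by edgeR. For mhc2dga, C60D-2 and C60D-3 had 467 and 214 counts, C60D-1 had 0, and T60D had 2, 0 and 11. The gene b2m had 378, 130 and 160 CPM in T60D and 532, 289 and 425 CPM in C60D, and the log2 fold change was -0.90 (SE 0.53). The gene cd74a had 414, 171 and 118 CPM in T60D and 553, 258 and 408 CPM in C60D (log2 fold change -0.78, SE 0.59), and mhc1zba had 512, 213 and 96.8 CPM in T60D and 390, 419 and 389 CPM in C60D (log2 fold change -0.53, SE 0.63). The heat-treated libraries spread widely, with T60D-1 the highest for all 3 genes. The other genes with enough counts had log2 fold changes of -0.63 for cd74b, -1.05 for mhc1zca and -1.06 for mhc1uka, and leaving out C60D-3 gave -0.90 for b2m and -0.79 for cd74a. Leaving out T60D-1 gave -1.63 for b2m, -1.57 for cd74a, -1.28 for cd74b and -1.43 for mhc1zba. The 3 C60D libraries and T60D-2 had liver markers at no more than 20.3 CPM. This comparison is thus also one between libraries with and without liver. Eye markers summed to 3.65 to 9.15 CPM in C60D and 3.39 to 2879 CPM in T60D. The gut and exocrine pancreas markers summed to 11.2 to 533 CPM in C60D and 6.02 to 4314 CPM in T60D. The heat cannot be told apart from these differences in tissue.

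At the later ages the further genes gave the same count by edgeR, 0 of 90 at 45 dpf (1060 genes of all 20125 higher and 2115 lower at an unadjusted p of at most 0.05) and 0 of 92 at 60 dpf (3002 of all 18653 higher and 1777 lower). DESeq2 called 0 of 104 at 45 dpf, where it called 2.7% of all genes. At 60 dpf DESeq2 called 14 of 107, with 4 higher and 10 lower, against 12.4% of all genes. The immunoproteasome list had medians of -0.52 at 45 dpf and -1.36 at 60 dpf, with 6 and 7 of 8 genes below 0, and psme2 had 28.5 to 49.9 CPM in T60D and 69.0 to 121 CPM in C60D (adjusted p = 0.15 in edgeR).

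The class II gene mhc2dga did not keep step with cd74a or with the class II gene mhc2daa. In expected counts it had 141, 69 and 0 in T45D, against 169, 762 and 474 in C45D, and 2, 0 and 11 in T60D, against 0, 467 and 214 in C60D. It was thus at 0 in C60D-1, T45D-3 and T60D-2, 1 control and 2 heat-treated libraries, where a count of 0 allows at most 0.210, 0.409 and 0.188 CPM. The same 3 libraries had 7887, 2266 and 2732 counts of cd74a. Their counts of the class II alpha chain gene mhc2daa were 8475, 1433 and 2630, and of the class II gene mhc2dhb 366, 24 and 120. In T60D-1, with 5850 counts of cd74a and 3456 of mhc2daa, mhc2dga had 2 counts.

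The gene next to mhc2dga in the RefSeq gene order is mhc2dgb, the class II beta chain gene of the same pair by name, and it shared this course. It had 2, 22 and 20 counts in T35D and 383, 104 and 168 in C35D, 121, 111 and 0 in T45D and 212, 785 and 513 in C45D, and 1, 0 and 55 in T60D and 0, 1209 and 606 in C60D. Both genes were at 0 in the same 3 libraries. Over the 21 libraries the log2 CPM of mhc2dga had a Pearson correlation of 0.97 with mhc2dgb, the highest of 22391 genes, followed by cnfn at 0.84, an unnamed gene at 0.81, pimr172 at 0.80 and LOC100004744 at 0.79. With mhc2dhb the correlation was 0.49, with cd74a 0.02 and with mhc2daa -0.06, across libraries that share age groups and differ in depth. Liver markers were at or below 24.4 CPM in the 3 libraries at 0 and in C60D-2 and C60D-3, and the part of tissue make-up was not tested. Whether the pooled fish differed in the MHC haplotypes they carried was not tested, since no genotypes were used here.

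**Figure D4:**
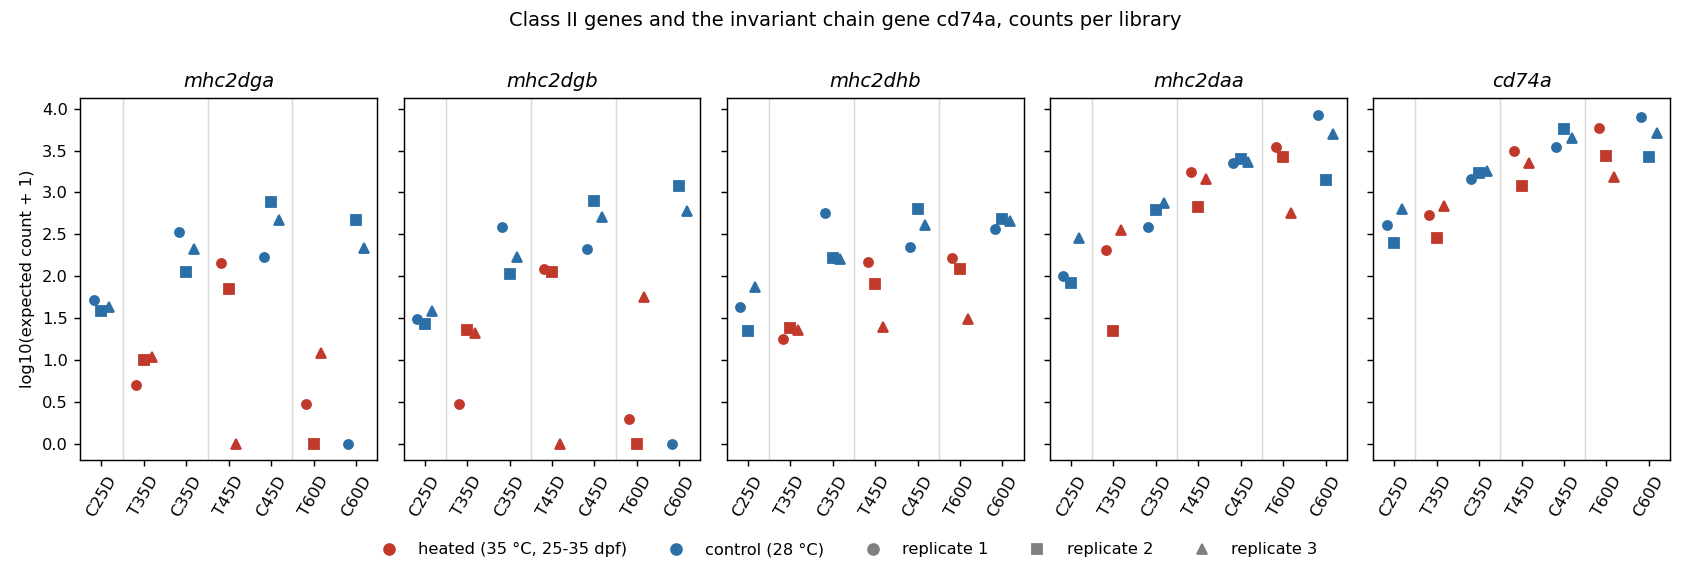
Expected counts of 4 class II genes and of the invariant chain gene cd74a in each library, as log10(count + 1), with heat-treated libraries in red and control libraries in blue. The adjacent genes mhc2dga and mhc2dgb both fall to 0 in C60D-1, T45D-3 and T60D-2, where mhc2daa has 1433 to 8475 counts and cd74a 2266 to 7887 counts.

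The Z lineage gene mhc1zea was not called across the control ages. In control fish it had 8.97, 13.8 and 6.68 CPM in C25D, 5.90, 13.9 and 8.50 CPM in C35D, 5.76, 7.61 and 6.55 CPM in C45D, and 48.8, 2.14 and 28.6 CPM in C60D. The 60 dpf controls spread 22.8-fold, with C60D-3 between the other libraries as its mean-like values would have it. In heated fish it had 5.96, 27.2 and 29.1 CPM in T35D, 29.4, 23.3 and 32.5 CPM in T45D, and 4.03, 16.6 and 33.9 CPM in T60D.

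At 45 dpf all 3 T45D libraries were above all C45D libraries, with a log2 fold change of 2.16 (SE 0.31), and the value was between 2.14 and 2.30 when any 1 library was left out and 1.57 with library size in place of TMM. At 35 dpf the groups overlapped (log2 fold change 1.12, SE 0.65), because T35D-1 had 5.96 CPM. At 60 dpf the log2 fold change was -0.64 (SE 1.05), and 0.32 without C60D-1. In T35D and T60D the oocyte-rich libraries T35D-2, T35D-3, T60D-2 and T60D-3 had 27.2, 29.1, 16.6 and 33.9 CPM of mhc1zea. T35D-1 and T60D-1 had 5.96 and 4.03 CPM. The oocyte-rich T45D-2 was the lowest of T45D, at 23.3 CPM, and C60D-1, not oocyte-rich, had 48.8 CPM. The parts of tissue make-up and of MHC haplotypes of the pools in these values were not tested.

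The adjacent Z gene mhc1zda had 10.8 ± 7.35 CPM in T35D and 8.16 ± 2.08 CPM in C35D, and 23.0 ± 14.6 CPM in T45D and 13.4 ± 2.61 CPM in C45D (SD, n = 3 each). Its log2 fold change at 45 dpf was 0.84 (SE 0.59, adjusted p = 0.47 in edgeR), and its correlation with mhc1zea over the 21 libraries was 0.21. The genes most like mhc1zea by Pearson correlation of log2 CPM were oxsr1b at 0.82, mat2aa at 0.80, fzd7b at 0.78, plekhm1 at 0.77 and zgc:113227 at 0.75, none of them an MHC gene. With mhc1zba the correlation was -0.39, with libraries of the same groups as the points.

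The U lineage gene mhc1uba, between tapbp.2 and psmb13a in the RefSeq gene order, was read at low counts throughout. It had 3, 0 and 0 counts in T35D and 42, 6 and 51 in C35D, 28, 18 and 97 in T45D and 1, 14 and 12 in C45D, and 4, 0 and 64 in T60D and 0, 0 and 1 in C60D. The C25D libraries had 3, 3 and 4. Libraries of 1 group thus differed by more than 10-fold in T45D (11.6-fold in CPM) and in C35D (10.5-fold), and at or under 3 counts no level can be read. The nearby U gene mhc1uka spread at most 4.43-fold within a group, where all 3 libraries had more than 3 counts.

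The values of the heat-treated groups, like those of the controls compared with them, are part of the contrast on which the set was chosen. Differences of the set between heated ages are therefore given without a test. The log2 fold change of T60D over T35D was 4.48 (SE 0.92) for mhc1uka, 2.90 (SE 0.71) for b2m, 2.73 (SE 0.76) for cd74a and 2.48 (SE 0.69) for cd74b. Across the 3 heated ages edgeR's F test called 0 of 20460 genes, with 257 higher and 340 lower at 60 dpf at an unadjusted p of at most 0.05, and DESeq2 called 35 of 25800 genes, 0.136%. Of the further genes, edgeR called 0 of 92 and DESeq2 0 of 106.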

How the data were processed

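According to the submitters' processing notes and the study's methods, the authors aligned reads to the GRCz11 coding genes with Bowtie2 2.2.5, and RSEM 1.2.12 turned the alignments into an expected count for every gene, with no normalization. FPKM values, which the authors scaled by transcript length and library size, were used here only to compare genes with each other. Gene numbers were named from the RefSeq list (24087 of 26225), which is of another assembly, so no coordinates are given.

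Expected counts were rounded. Groups came from the labels. Tests used edgeR 4.0.16 in R 4.3.3 (TMM, filterByExpr, quasi-likelihood test, Benjamini-Hochberg over all genes tested, threshold 0.05), run on simulated data first. CPM values use the TMM factors of all 21 libraries. The heat comparisons of the set were fitted on 6 libraries each. Alternatives were DESeq2 1.42.0, its size factors, library size only, no filter, a replicate block, one fit of 21 libraries, and each library left out. Fits without C45D-3, C60D-3, T45D-3, T60D-2 or all C60D libraries were added after the data were seen.

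The genes and lists were chosen with earlier results of these data known. Genes beyond the set are the 3 of highest mean CPM of a list in a heat comparison, those most like mhc1zea and mhc2dga, and those stated to be named after seeing values. The labels call the replicates separate samples.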

Additional observations from a re-analysis of the deposited data

Results flagged for a closer look

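The U lineage class I gene mhc1uba lay on opposite sides of its controls at 2 ages. At 35 dpf all 3 T35D libraries were below all 3 C35D libraries, with a difference of the mean CPM, heated minus control, of -2.16, and at 45 dpf all 3 T45D libraries were above all 3 C45D libraries, with a difference of 5.07 CPM. The difference between the ages was not tested. At 45 dpf the mean rests on T45D-3, which had 13.2 CPM, against 2.51 and 1.14 CPM in T45D-1 and T45D-2, and most libraries had few counts of this gene, as given above.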

How the results depend on the processing

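Counts of genes called depended on the tool. At 35, 45 and 60 dpf edgeR called 0 genes and DESeq2 called 1671, 677 and 3176. One fit of 21 libraries called 1 gene at 35 dpf (plekhf1, named after its value was seen) and 3163 at 60 dpf, and library size in place of TMM called 9 at 60 dpf. With single libraries left out the counts ran from 0 to 6642 at 35 dpf (the highest without T35D-1), from 0 to 1667 at 45 dpf (without T45D-2) and from 0 to 6293 at 60 dpf (without T60D-1, and 426 without T60D-2). Across control ages the count of 10826 was 3126 in one fit of 21 libraries, 5507 without C45D-3 and C60D-3, 4024 without C60D, 1538 without C60D and C45D-3, and 8189 to 11325 with single libraries left out. Across heated ages the count of 0 was 35 in DESeq2 and 31 in one fit of 21 libraries, and stayed between 0 and 0 with single libraries left out. The cause was not tested.

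Of the 9 genes, the count called across control ages was 7 or 8 with any single library left out and 4 in one fit of 21 libraries. The direction between the end ages turned for mhc1zea without C60D (-0.55) and without C60D and C45D-3 (-0.54), and for mhc1uba likewise (1.42 and 1.13), since C45D was then the last age. Across heated ages mhc1zea turned to 0.06 without T35D-2, 0.13 without T35D-3 and 0.29 without T60D-1, within a range of -0.99 to 0.29 with single libraries left out. At 45 dpf library size alone moved the median of all genes to -0.43 from 0.12 with TMM, and mhc1zca to -0.13. At 60 dpf, without T60D-1, the log2 fold changes were -1.63 for b2m, -1.57 for cd74a, -1.28 for cd74b and -1.43 for mhc1zba.

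By the labels the libraries share only a number. Not every same-numbered pair correlated above 0.1, with mean correlations of same-numbered libraries of -0.06, -0.09 and -0.19 at 35, 45 and 60 dpf, where 2, 1 and 0 of 6 libraries correlated best with their own number. Between control ages all 3 pairs were above 0.1 for C35D with C25D (0.17, 0.17 and 0.12, with 6 of 6 libraries best with their own number) and for C60D with C45D (0.37, 0.23 and 0.18, with 4 of 6), and not for the other 4 pairs of control ages. With a replicate block edgeR called 10036 genes across control ages and 0 in the other comparisons, and the same number of the 9 genes, 7, across control ages.

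Depth limits mhc1uba, mhc2dga and mhc1uka, which had 3 or fewer counts in some libraries, so differences between those libraries were not detectable. With 3 pools per group and mean-like libraries in C45D and C60D, the spread between replicates is poorly known.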
